A study of Homo sapiens with 24 samples.

Results

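ESPN, CCDC3 and C21orf91 are 3 genes, each read here through a row that was higher in both TMEM97 knockout lines than in the control line SGCTRL. They were chosen by that difference. They are followed here through 3 rows of the count tables, among 61578 rows in each table and 12822 rows that passed the count filter. All 3 rows passed. They were selected on the SG12, SG21 and SGCTRL readings, so the differences between knockout and control lines are given below as a description with no test. What was tested is the effect of the medium within each line, the difference between the knockout lines, and the difference in medium response between lines. The choice did not use these measures directly. Apart from the medium effect in parental cells, however, they draw on the libraries that chose the rows, so their p values are not independent of the choice.

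The RNA came from HGC27, an established human gastric carcinoma line labelled epithelial. The groups are SG12 in LPDS, SG12 in FBS, SG21 in LPDS, SG21 in FBS, SGCTRL in LPDS, SGCTRL in FBS, parental cells in LPDS and parental cells in FBS, with 3 independent biological samples in each of the 8 groups and 3 days in the medium. SG12 and SG21 carry the genotype TMEM97 knockout, SGCTRL and parental cells are labelled wild type, and all were grown in high glucose DMEM. LPDS usually stands for lipoprotein-deficient serum and FBS for fetal bovine serum. The labels do not say whether a line is 1 clone, and the knockout lines have no rescue among these groups. Libraries held 2.40 M to 5.54 M reads on genes, which was 5.28% to 5.54% of the uniquely aligned reads.

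The 3 genes make proteins of unlike kinds. ESPN encodes espin, which ties actin filaments into the parallel bundles of hair cell stereocilia and epithelial microvilli. CCDC3 encodes a secreted protein with a coiled coil, described in endothelium and fat. C21orf91, also called EURL, lies on chromosome 21 and has been studied in the developing mouse cortex, where it was linked to neuron number and to beta-catenin. TMEM97 encodes the sigma-2 receptor, a membrane protein of the endoplasmic reticulum that binds the cholesterol exporter NPC1 and whose gene is a target of the sterol-responsive SREBP factors.

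Most reads of these stranded libraries were counted on the strand opposite to the RNA, so a gene is read through the row of a neighbour that overlaps it on the other strand. This reading was chosen after the data were seen. The coordinates that follow are those of GENCODE release 29 on GRCh38 (hg38). ESPN (chr1:6424776-6461367, plus strand) was read through TNFRSF25 (chr1:6460786-6466195, minus strand), of whose 4283 exon bases 383 lie on exons at the end of ESPN, 199 in its introns and 3701 beyond it. CCDC3 (chr10:12896625-13099652, minus strand) was read through the antisense RNA gene ENSG00000285520 (chr10:12877459-12965275, plus strand), of whose 1946 exon bases 168 lie on a coding exon of CCDC3, 1268 in its introns and 510 beyond it. C21orf91 (chr21:17788967-17819386, minus strand) was read through the antisense RNA gene ENSG00000244676 (chr21:17793488-17810845, plus strand), of whose 454 exon bases 71 lie on a C21orf91 exon and 383 in its introns. The map of these exons shows how little of each gene is sampled. Levels therefore cannot be compared between the 3 genes, and the share of reads from a row's own gene was not measured.

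**Figure D1:**
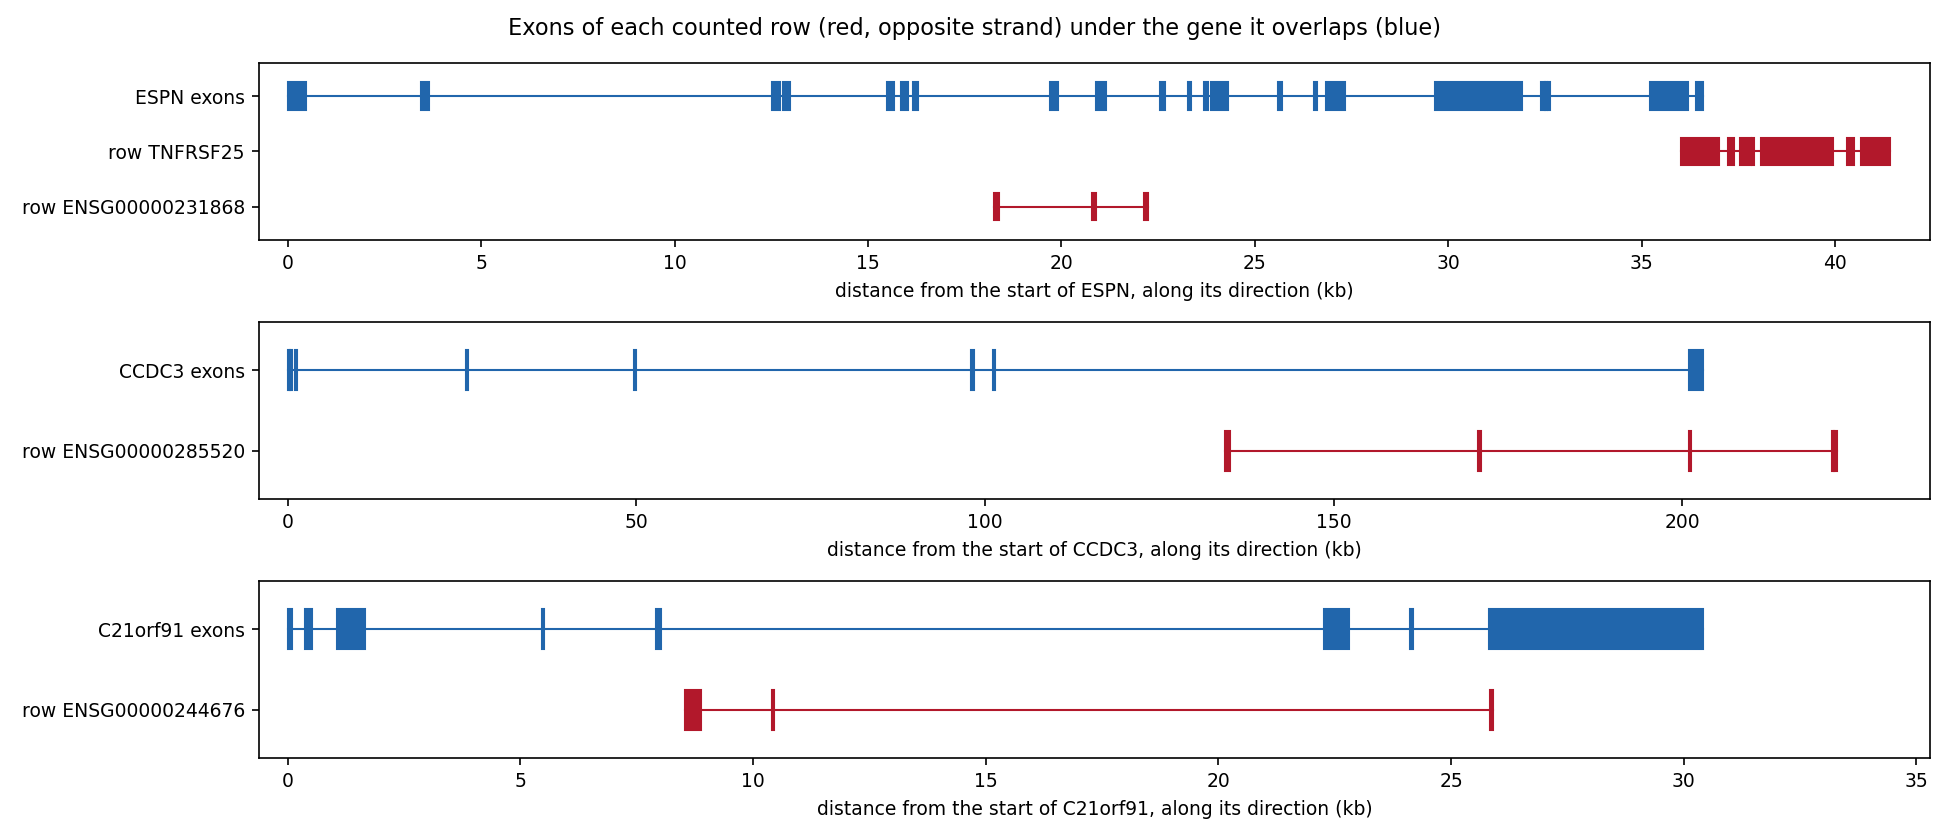
Exons of ESPN, CCDC3 and C21orf91 (blue) and of the rows through which they were read (red), drawn by distance in kb from the start of each gene along its own direction. The row TNFRSF25 meets the end of ESPN over 383 exon bases, and a second row inside ESPN, ENSG00000231868, lies almost wholly in introns.

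The stretch of CCDC3 that its row covers is shown because it is the only exon sequence of that gene under this row. It is 168 bases of coding sequence at chr10:12898512-12898679 (GRCh38, minus strand, from the GENCODE 29 transcript CCDC3-201), written 5′ to 3′ on the CCDC3 strand.
CCDC3 coding stretch: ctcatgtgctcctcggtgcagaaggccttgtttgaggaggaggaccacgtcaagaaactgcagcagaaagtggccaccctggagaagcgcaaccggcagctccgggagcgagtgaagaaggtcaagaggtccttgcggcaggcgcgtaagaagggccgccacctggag

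The promoters are shown to describe the starts of the genes, whose shared rise in the knockout lines was the rule that chose them. They are 300-base windows around annotated starts, from RefSeq on GRCh38.p14, minus strand, 5′ to 3′. Matches were found for CCDC3, with an upstream start (chr10:13099940-13100239) and a downstream start (chr10:13001664-13001963), and for C21orf91 (chr21:17819307-17819606). The upstream CCDC3 window lies wholly upstream of the GENCODE start of that gene (chr10:13099652), so it belongs to another annotated start. ESPN is named only. Capitals mark GC boxes, GGGCGG on either strand, the element that Sp1 binds.
CCDC3 upstream promoter: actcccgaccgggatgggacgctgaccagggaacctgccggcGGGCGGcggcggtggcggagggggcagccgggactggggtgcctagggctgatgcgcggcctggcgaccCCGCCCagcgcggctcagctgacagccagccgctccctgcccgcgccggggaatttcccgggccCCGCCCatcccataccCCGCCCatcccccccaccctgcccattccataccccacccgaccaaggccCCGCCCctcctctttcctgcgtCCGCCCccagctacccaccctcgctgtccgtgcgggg
CCDC3 downstream promoter: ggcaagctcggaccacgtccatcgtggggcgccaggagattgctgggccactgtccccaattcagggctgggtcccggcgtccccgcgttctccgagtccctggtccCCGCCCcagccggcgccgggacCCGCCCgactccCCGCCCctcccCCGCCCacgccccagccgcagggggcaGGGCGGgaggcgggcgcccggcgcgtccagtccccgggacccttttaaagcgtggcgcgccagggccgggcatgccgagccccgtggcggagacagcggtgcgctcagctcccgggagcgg
C21orf91 promoter: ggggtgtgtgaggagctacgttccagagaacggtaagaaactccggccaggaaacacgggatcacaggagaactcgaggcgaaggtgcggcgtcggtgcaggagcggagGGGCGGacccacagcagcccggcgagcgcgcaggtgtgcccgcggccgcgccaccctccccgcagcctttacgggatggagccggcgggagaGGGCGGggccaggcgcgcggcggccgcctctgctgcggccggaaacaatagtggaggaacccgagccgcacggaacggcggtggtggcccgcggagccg

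GC boxes numbered 6 in the upstream CCDC3 promoter, 5 in the downstream one and 2 in that of C21orf91. At least 1 such box was held by 45.0% of the 35116 promoters in the table. None of the 3 windows held, on either strand, the sterol regulatory element TCACNCCAC (in 1.13% of all promoters), the E-box CACGTG (7.26%), the AP-1 element TGACTCA (4.95%) or the TATA box TATAAA (11.5%). These letter matches describe the windows only, and an absent match says nothing of whether a factor binds there.

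TMEM97, the targeted gene, was read through the row IFT20, which overlaps it. In LPDS it averaged 190 ± 16.2 CPM (counts per M reads on genes) in SG12 and 126 ± 9.45 CPM in SG21, against 160 ± 6.13 CPM in SGCTRL (SD, n = 3 each). In FBS it averaged 51.6 ± 4.44 CPM in SG12 and 75.4 ± 1.85 CPM in SG21, against 129 ± 10.8 CPM in SGCTRL. The reading was thus below SGCTRL in both knockout lines in FBS, and in LPDS in SG21 alone. This row does not show whether the protein was lost.

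The libraries also split by the share of reads on genes that were ambiguous. The share was 2.10% to 2.24% in 8 libraries, all 6 of SGCTRL and replicates 2 and 3 of SG21 in LPDS, and 2.58% to 3.15% in the other 16. SG12, parental cells and SG21 in FBS share no class of this split with SGCTRL. Their differences from SGCTRL cannot be told apart from it. Of the epithelial markers, EPCAM, KRT19 and TJP1 averaged at most 0.238 CPM under their own names, and KRT8, KRT18 and CDH1 at most 1.09 CPM by opposite strand rows. CLDN4 and CLDN7 averaged 39.4 and 4.96 CPM under their own names, and the mesenchymal gene VIM, read through VIM-AS1, averaged 23700 CPM. Of the endothelial and neural markers, CDH5, KDR and DCX were at 0 in all 24 libraries, PECAM1, VWF and SOX2 averaged 0.0384, 0.0709 and 0.0801 CPM, and TUBB3 averaged 6.21 CPM under its own name. Under their own names the fibroblast marker COL1A1 averaged 82.9 CPM, DCN and LUM 1.27 and 0.913 CPM, and the leukocyte markers PTPRC and CD3E at most 0.105 CPM. The endothelial and neural markers were all counted under their own names. Such rows can miss most reads of their gene, so a low value there does not show that a transcript was absent. Own name rows also cannot be set against VIM by level. In bulk RNA, fewer cells with a transcript and less transcript per cell cannot be told apart.

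ESPN was higher in the knockout lines, and highest in SG12 in FBS. The row TNFRSF25 had 68.6, 55.7 and 66.4 CPM in SG12 in LPDS and 142, 139 and 131 CPM in SG12 in FBS. It had 44.4, 52.3 and 49.3 CPM in SG21 in LPDS and 45.0, 56.1 and 45.1 CPM in SG21 in FBS. The SGCTRL libraries had 16.6, 20.9 and 24.7 CPM in LPDS and 22.4, 28.9 and 26.7 CPM in FBS. All 12 knockout libraries lay above all 6 SGCTRL libraries, a separation that follows in part from the choice of this row. Parental cells had 22.8, 18.2 and 21.5 CPM in LPDS and 23.6, 12.1 and 17.5 CPM in FBS, also below every knockout library. The lowest knockout library was at 44.4 CPM and the highest of the 12 control libraries at 28.9 CPM.

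On the log2 scale, TNFRSF25 was 1.61 ± 0.18 (SE) above SGCTRL in SG12 in LPDS and 2.42 ± 0.18 above it in SG12 in FBS. In SG21 the difference from SGCTRL was 1.17 ± 0.19 in LPDS and 0.90 ± 0.18 in FBS. Against parental cells the differences were 1.65 and 2.98 in SG12 in LPDS and FBS, and 1.21 and 1.47 in SG21 in LPDS and FBS. SGCTRL itself differed from parental cells by 0.04 in LPDS and 0.57 in FBS. In order of level, SG12 in FBS stood first with 137 ± 5.69 CPM, SG12 in LPDS second with 63.6 ± 6.88 CPM, and the SG21 groups shared a mean of 48.7 CPM. SG12 in FBS did not overlap SG12 in LPDS, and neither SG21 group overlapped a control group. SG12 in LPDS lay above SG21 in LPDS in all libraries, but its replicate 2 (55.7 CPM) lay just under replicate 2 of SG21 in FBS (56.1 CPM). The 4 control groups overlapped, with means between 17.7 and 26.0 CPM.

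CCDC3, read through ENSG00000285520, was higher in the knockout lines as well, with less separation between SG12 and SG21. A second and much lower reading of CCDC3, the row OPTN, was not higher in SG21 and is given further below. ENSG00000285520 had 155, 183 and 171 CPM in SG12 in LPDS and 249, 246 and 180 CPM in SG12 in FBS. It had 201, 283 and 276 CPM in SG21 in LPDS and 220, 231 and 239 CPM in SG21 in FBS. The control libraries had 83.4, 79.3 and 60.8 CPM in SGCTRL in LPDS, 92.0, 83.1 and 83.1 CPM in SGCTRL in FBS, 80.9, 87.6 and 79.8 CPM in parental cells in LPDS and 81.2, 88.5 and 85.4 CPM in parental cells in FBS. The lowest knockout library, at 155 CPM, lay above the highest control library, at 92.0 CPM. Replicate 3 of SG12 in FBS and replicate 1 of SG21 in LPDS were the low libraries of their groups.

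The log2 difference of ENSG00000285520 from SGCTRL was 1.20 in SG12 in LPDS, 1.41 in SG12 in FBS, 1.72 in SG21 in LPDS and 1.42 in SG21 in FBS. From parental cells it was 1.07 and 1.45 in SG12 in LPDS and FBS, and 1.59 and 1.45 in SG21 in LPDS and FBS. SGCTRL differed from parental cells by -0.14 in LPDS and 0.04 in FBS. By mean level SG21 in LPDS came first (253 ± 45.4 CPM), then SG21 in FBS (230 ± 9.73 CPM), SG12 in FBS (225 ± 38.8 CPM) and SG12 in LPDS (170 ± 13.9 CPM). Each of these overlapped its neighbour. The only gap without overlap was between SG12 in LPDS and the control groups, whose means ran between 74.5 and 86.0 CPM.

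C21orf91 showed the smallest separation of the 3. ENSG00000244676 had 98.1, 88.8 and 81.1 CPM in SG12 in LPDS and 111, 119 and 91.2 CPM in SG12 in FBS. It had 111, 88.1 and 94.0 CPM in SG21 in LPDS and 86.0, 82.1 and 89.5 CPM in SG21 in FBS. The control libraries had 43.0, 47.7 and 52.5 CPM in SGCTRL in LPDS, 49.2, 52.3 and 40.0 CPM in SGCTRL in FBS, 56.1, 48.1 and 47.7 CPM in parental cells in LPDS and 52.4, 67.0 and 45.4 CPM in parental cells in FBS. No control library reached the lowest knockout library. That library was at 81.1 CPM, and the highest control library, parental cells in FBS replicate 2, was at 67.0 CPM.

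The log2 difference of ENSG00000244676 from SGCTRL was 0.91 in SG12 in LPDS, 1.21 in SG12 in FBS, 0.98 in SG21 in LPDS and 0.87 in SG21 in FBS. From parental cells it was 0.86 and 0.99 in SG12 in LPDS and FBS, and 0.93 and 0.65 in SG21 in LPDS and FBS. SGCTRL differed from parental cells by -0.05 in LPDS and by -0.21 in FBS. The 4 knockout group means, 85.9 to 107 CPM, overlapped from one neighbour to the next, and so did the 4 control means, 47.2 to 55.0 CPM.

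**Figure D2:**
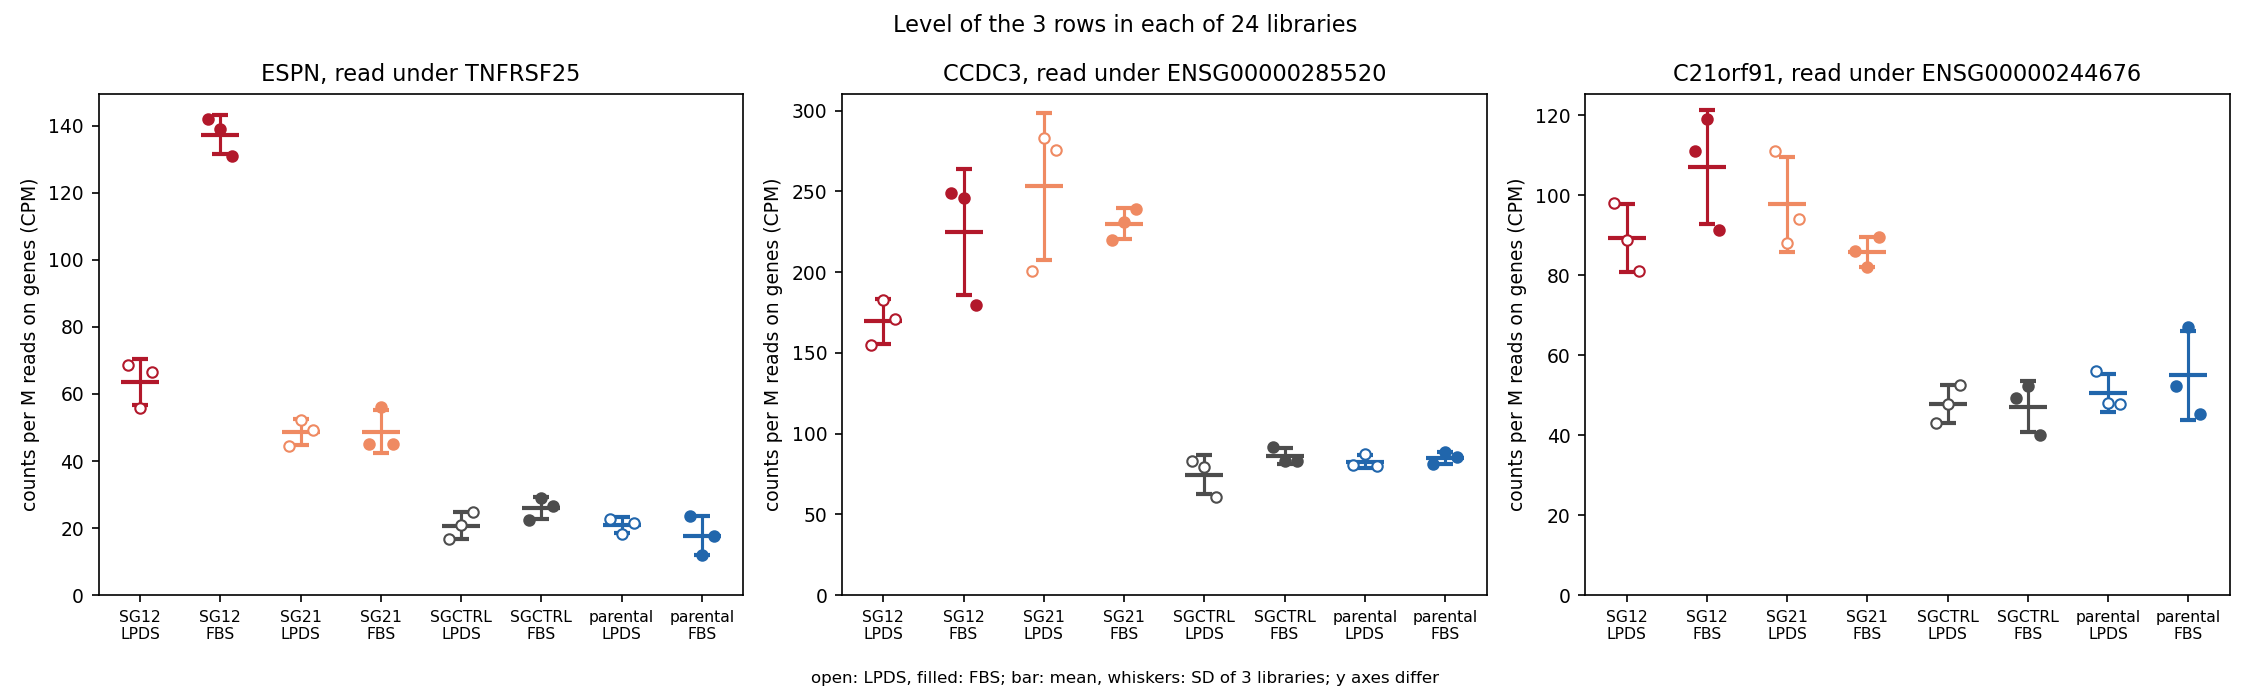
Level in CPM of the rows TNFRSF25, ENSG00000285520 and ENSG00000244676 in each library (points, open for LPDS and filled for FBS), with mean and SD of 3 libraries per group. In each panel the 12 knockout libraries lie above the 12 control libraries, and in the TNFRSF25 panel SG12 in FBS stands above all other groups. The rows were chosen for higher readings than SGCTRL, and the share of all tested rows so separated was not counted.

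**Figure D3:**
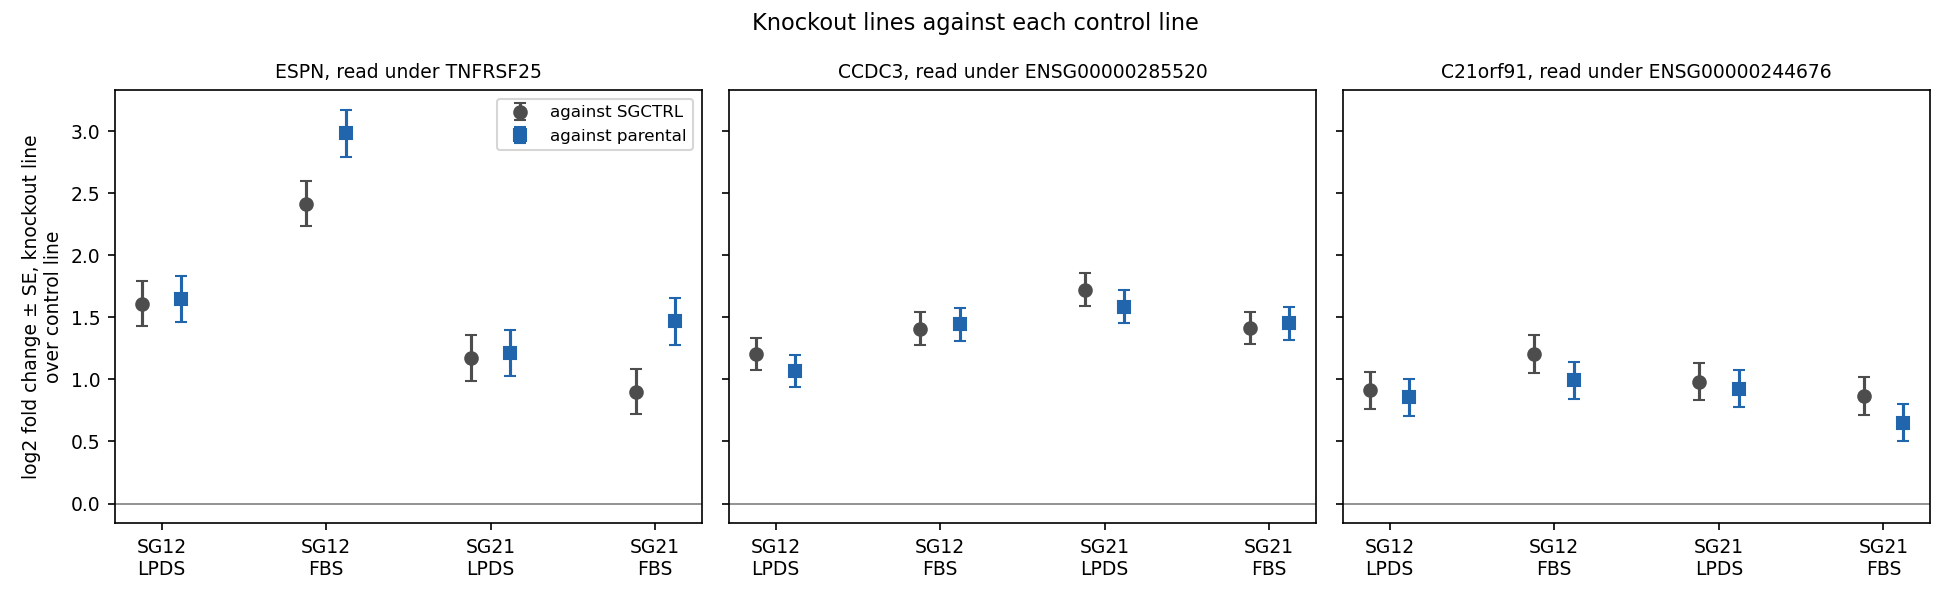
Log2 fold change (± SE) of each knockout line over SGCTRL (circles) and over parental cells (squares), in LPDS and FBS. All points lie above 0, and TNFRSF25 in SG12 in FBS is highest, at 2.42 over SGCTRL and 2.98 over parental cells.

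Rows called higher than SGCTRL in both knockout lines, at an adjusted p under 0.05 in each, were 2.99% of the tested rows in FBS (383 rows), 1.09% in LPDS (140 rows) and 0.523% in both media (67 rows). The 3 rows are among these by choice. The share of tested rows in which every knockout library lies above every control library was not counted. The separation of the 3 rows by library therefore has no background here. By the mean of the 4 differences from SGCTRL, TNFRSF25 ranked 84th of the 12822 rows with a mean of 1.53, ENSG00000285520 ranked 106th with 1.44 and ENSG00000244676 ranked 339th with 0.99. SG21 and SGCTRL share the low class of the ambiguous share in LPDS, and their values there, which are among those that chose the members, are given as a description. Replicates 2 and 3 of SG21 in LPDS had 49.3 to 52.3 CPM of TNFRSF25, against 16.6 to 24.7 CPM in the SGCTRL libraries in LPDS. For ENSG00000285520 they had 276 to 283 CPM, against 60.8 to 83.4 CPM, and for ENSG00000244676 88.1 to 94.0 CPM, against 43.0 to 52.5 CPM, in the same SGCTRL libraries.

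ESPN, and CCDC3 as read through ENSG00000285520, were lower in LPDS than in FBS in SG12, and in no other line did a member pass. In edgeR's quasi-likelihood test with Benjamini-Hochberg adjustment over all tested rows, 22.5% of rows passed for LPDS over FBS in SG12, and 11.0% of all tested rows were lower in LPDS. TNFRSF25 fell by 1.11 ± 0.17 on the log2 scale in SG12 in LPDS (adjusted p = 1.3e-06), lower in 3 of 3 libraries than any FBS library. ENSG00000285520 fell by 0.41 ± 0.13 (adjusted p = 0.0158), though replicate 2 in LPDS (183 CPM) lay above replicate 3 in FBS (180 CPM). The low second reading of CCDC3, the row OPTN, did not pass in the same test (-0.31 ± 0.46, adjusted p = 0.674). ENSG00000244676 changed by -0.26 ± 0.15, which did not pass (adjusted p = 0.204) but did so without replicate 3 of SG12 in FBS (-0.44, adjusted p = 0.0331). The fall left TNFRSF25 and ENSG00000285520 above their control levels in SG12.

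In SG21, where 3.83% of rows passed for LPDS over FBS, none of the 3 did. The differences were -0.03 ± 0.18 for TNFRSF25, 0.10 ± 0.13 for ENSG00000285520 and 0.15 ± 0.15 for ENSG00000244676, with adjusted p of 0.954, 0.748 and 0.663 in edgeR's test. In SGCTRL, with 2.33% of rows passing, they were -0.30 ± 0.19, -0.20 ± 0.14 and 0.04 ± 0.15 in the same order, and the adjusted p values were 0.512, 0.545 and 0.955. In parental cells, with 4.55% of rows passing, they were 0.22 ± 0.20, -0.03 ± 0.14 and -0.12 ± 0.15, with adjusted p of 0.583, 0.932 and 0.707. No member passed at an unadjusted p under 0.05 in these 3 lines either, and DESeq2's Wald test called none.

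**Figure D4:**
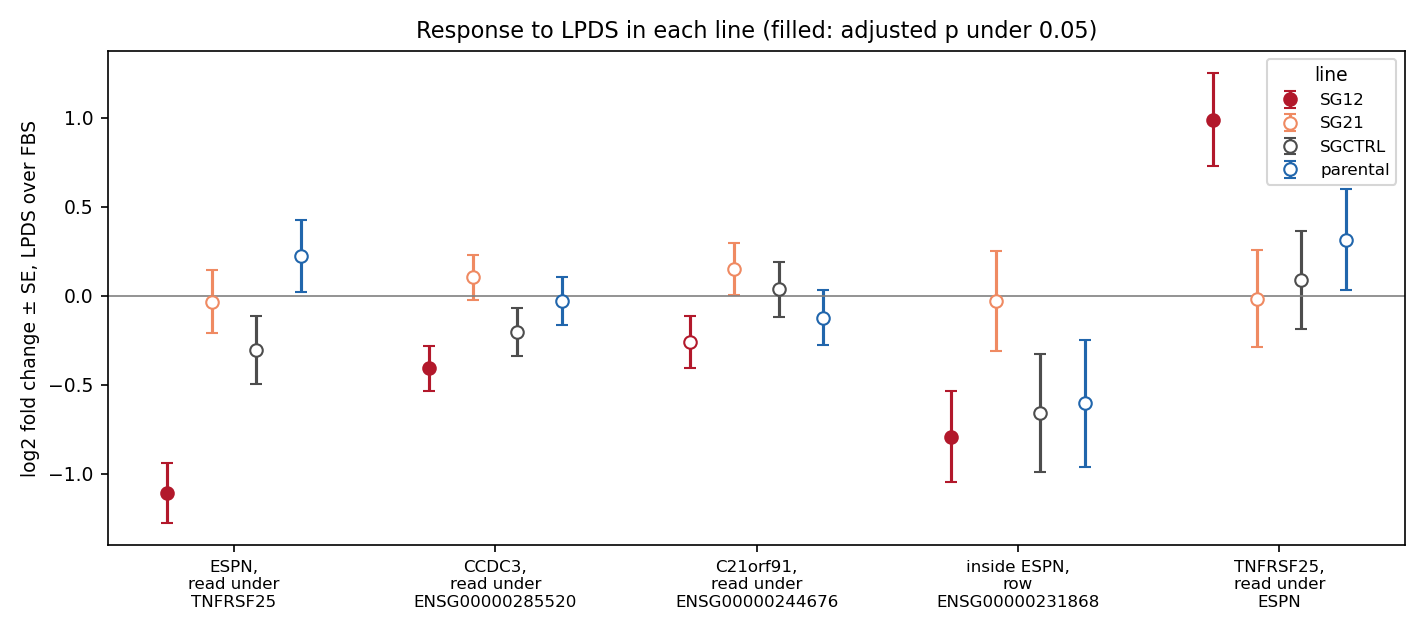
Log2 fold change (± SE) of LPDS over FBS in each line, for the 3 rows and for the other rows of the ESPN locus, with filled points where the adjusted p is under 0.05. The filled points are all in SG12, with TNFRSF25 at -1.11 and the row ESPN on the other side of 0 at 0.99.

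The knockout lines differed from each other in ESPN in FBS and in the CCDC3 row ENSG00000285520 in LPDS. In FBS, where 27.4% of rows passed for SG12 over SG21, TNFRSF25 was 1.52 ± 0.17 higher in SG12 (adjusted p = 4.48e-10 in edgeR's test), higher in 3 of 3 libraries. ENSG00000285520 differed by -0.01 ± 0.13 (adjusted p = 0.976) and ENSG00000244676 by 0.34 ± 0.15 (adjusted p = 0.0732), a value that passed with DESeq2's Wald test (0.38, adjusted p = 0.0448). In LPDS, where 18.6% passed, ENSG00000285520 was 0.52 ± 0.13 lower in SG12 (log2 fold change -0.52, adjusted p = 0.0021), lower in 3 of 3 libraries. That call was lost without replicate 2 of SG21 in LPDS (-0.40, adjusted p = 0.0528) and with a term for the ambiguous share class (-0.22, adjusted p = 0.484). That term is set by SG21 in LPDS alone, the only group with libraries of both classes. In LPDS TNFRSF25 differed by 0.44 ± 0.17 (adjusted p = 0.0698 in edgeR's test) and ENSG00000244676 by -0.07 ± 0.15 (adjusted p = 0.81).

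The response to LPDS itself differed between lines for ESPN. The response of TNFRSF25 was lower in SG12 than in SG21 by 1.08 ± 0.24 on the log2 scale (difference -1.08, adjusted p = 0.0014 in edgeR's test), in a comparison where 13.1% of rows passed. Against SGCTRL, where 10.7% passed, the difference was -0.80 ± 0.25 (-0.805, adjusted p = 0.0309). This second call was lost with no count filter (adjusted p = 0.05) and without any 1 of 3 libraries, among them SGCTRL in LPDS replicate 3 (-0.68, adjusted p = 0.117). For ENSG00000285520 the response was lower in SG12 than in SG21 by 0.51 ± 0.18 (-0.51, adjusted p = 0.0482), a value close to the threshold that was lost in 7 of 12 fits with a library left out. Its response in SG12 differed from that in SGCTRL by -0.21 ± 0.18 (adjusted p = 0.533). For ENSG00000244676 neither difference passed, at -0.41 ± 0.20 from SG21 (adjusted p = 0.193) and -0.29 ± 0.21 from SGCTRL (adjusted p = 0.407). SG21 did not differ from SGCTRL in the response of any of the 3 rows at an adjusted or unadjusted p under 0.05, in a comparison where 0.0468% of rows passed.

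A second row lies within ESPN, although it falls short of the overlap of 50 exon bases asked of a source gene and is no reading of ESPN by that rule. The row ENSG00000231868 (chr1:6443034-6447006, minus strand) has 18 of its 351 exon bases on ESPN exons and 333 in introns. It averaged 28.1 ± 6.68 CPM in SG12 in LPDS, 48.6 ± 5.71 CPM in SG12 in FBS, 16.2 ± 3.19 CPM in SG21 in LPDS and 16.1 ± 6.22 CPM in SG21 in FBS. The control means were 5.25 and 8.04 CPM in SGCTRL in LPDS and FBS, and 4.34 and 6.73 CPM in parental cells in LPDS and FBS. The order of the knockout groups was that of TNFRSF25. In LPDS it was lower than in FBS in SG12 (log2 fold change -0.79 ± 0.26, adjusted p = 0.0207 in edgeR's test). SG12 exceeded SG21 by 1.63 ± 0.27 in FBS (adjusted p = 3.28e-06) and by 0.865 ± 0.27 in LPDS (adjusted p = 0.0197). Its response in SG12 did not pass against SG21 (-0.76, adjusted p = 0.191) or SGCTRL (-0.13, adjusted p = 0.888).

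By the same rule the row named ESPN is assigned to the gene TNFRSF25, which encodes death receptor 3 of the tumour necrosis factor receptor family. It had 46.4 ± 12.3 CPM in SG12 in LPDS and 23.4 ± 4.18 CPM in SG12 in FBS, and its other group means lay between 15.1 and 20.3 CPM. In SG12 it was higher in LPDS than in FBS by 0.99 ± 0.26 (adjusted p = 0.0041 in edgeR's test), against the direction of TNFRSF25, and in LPDS it was higher in SG12 than in SG21 by 1.28 ± 0.27 (adjusted p = 0.000284). The 2 rows that share this locus thus moved in opposite directions with the medium in SG12. Under their own names CCDC3 averaged between 0.337 and 1.73 CPM over the groups and C21orf91 between 0.133 and 1.40 CPM. The related genes ESPNP, an ESPN pseudogene, and ESPNL reached at most 0.588 and 1.41 CPM in any library.

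**Figure D5:**
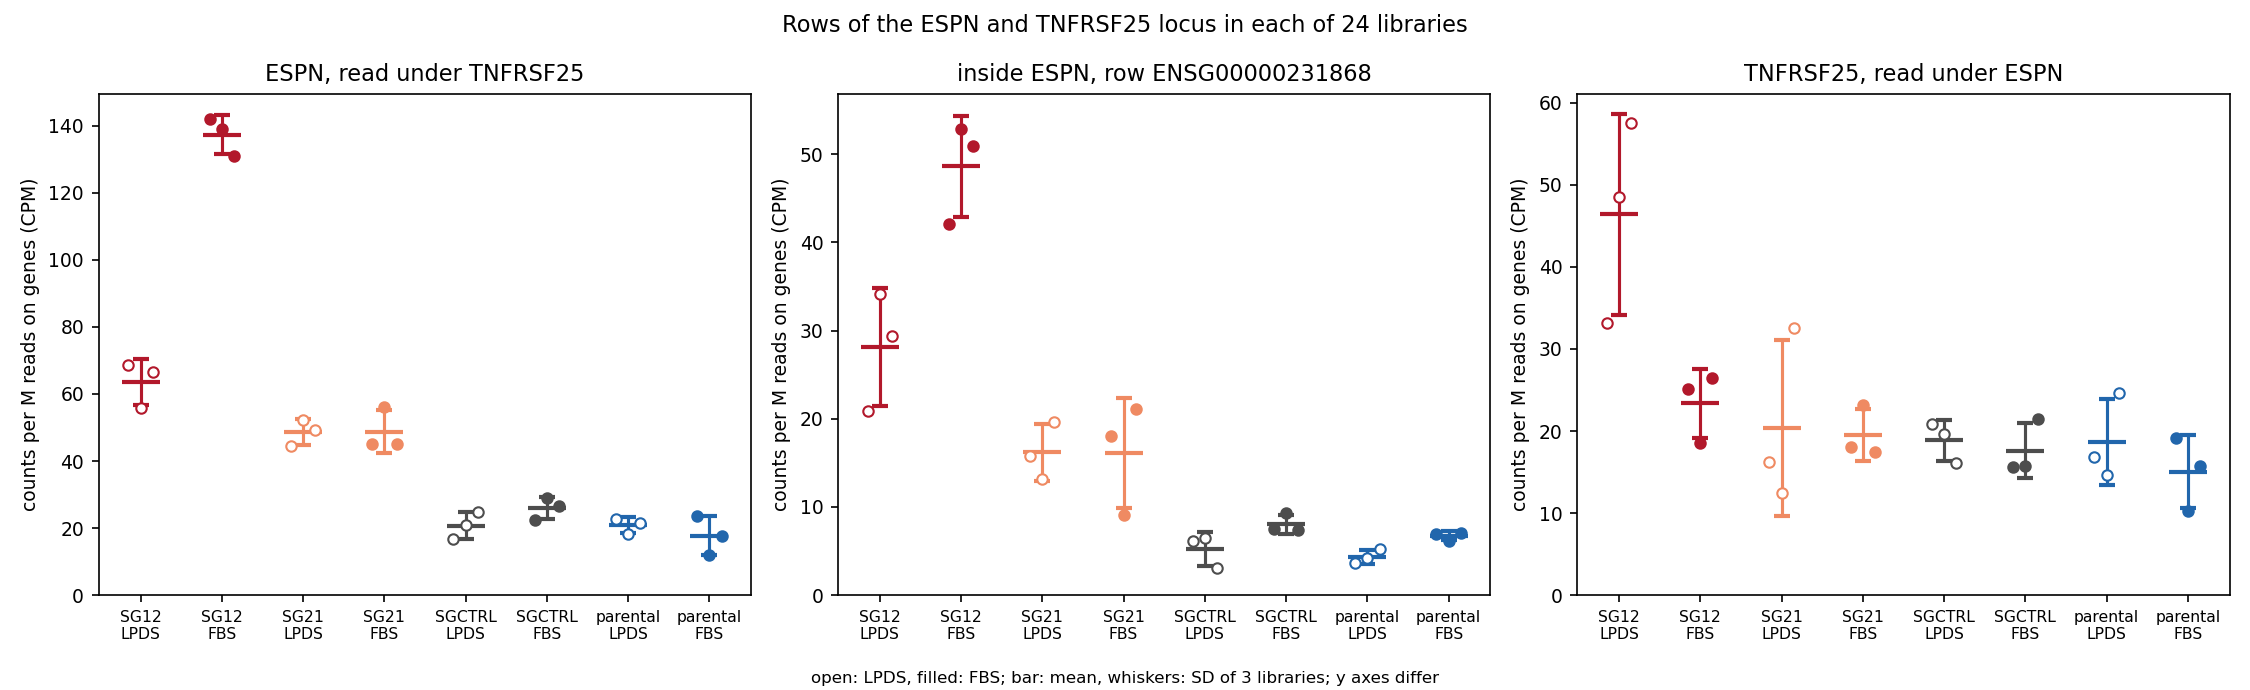
Level in CPM of the rows TNFRSF25, ENSG00000231868 and ESPN in each library (points, open for LPDS and filled for FBS), with mean and SD of 3 libraries per group. TNFRSF25 and ENSG00000231868 are highest in SG12 in FBS, while the row ESPN, assigned to the TNFRSF25 gene, is highest in SG12 in LPDS with a mean of 46.4 CPM.

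OPTN, which encodes the autophagy receptor optineurin, starts beside CCDC3, and its row covers 147 bases of a first exon of CCDC3. By the overlap rule its source gene is CCDC3, so it is a second reading of that gene, with 3 to 25 reads per library. It averaged 5.86 and 7.25 CPM in SG12 in LPDS and FBS, 1.78 and 1.23 CPM in SG21, 3.03 and 2.35 CPM in SGCTRL, and 3.42 and 3.78 CPM in parental cells. This low reading at the GENCODE start of CCDC3 was higher in SG12 than in SG21 in FBS (2.55 ± 0.54, adjusted p = 0.000229 in edgeR's test) and in LPDS (1.80 ± 0.54, adjusted p = 0.0127). Its mean in SG21 lay below both control lines, unlike that of ENSG00000285520. The log2 difference of OPTN in SG21 was -0.855 from SGCTRL in LPDS and -0.93 in FBS. From parental cells it was -0.98 in LPDS and -1.59 in FBS, of which the last passed (adjusted p = 0.0341 in edgeR's test). In SG12 the same row was above SGCTRL by 0.94 in LPDS (adjusted p = 0.222) and by 1.63 in FBS (adjusted p = 0.0121). It was above parental cells there by 0.82 in LPDS and 0.965 in FBS, and neither passed (adjusted p of 0.308 and 0.131).

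Of the 18 nearest tested rows, 3 on each side of each member, 2 were called higher than SGCTRL in both knockout lines in each medium, beside 2.99% of all tested rows in FBS and 1.09% in LPDS. The rows ESPN and PLEKHG5, which overlap TNFRSF25, were not counted among the 18 and were not called in this way. One of the 2 was ENSG00000231868 inside ESPN. The other was CHODL, which encodes the membrane lectin chondrolectin and lies 90.4 kb from ENSG00000244676. CHODL exceeded SGCTRL by 2.08 in SG12 in LPDS, 1.05 in SG12 in FBS, 1.54 in SG21 in LPDS and 1.68 in SG21 in FBS (log2, edgeR, adjusted p of 0.0107 or less). It is named because it passed in these comparisons, so their p values are no further support. None of the 6 rows around CCDC3 was called in this way.

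The members' patterns over the 8 group means of log2 CPM resembled each other, with Pearson r of 0.966 between CCDC3 and C21orf91, 0.911 between ESPN and C21orf91 and 0.849 between ESPN and CCDC3. These points share their libraries, and the choice of the members fixes part of the likeness. Among 9544 other rows the pattern nearest to TNFRSF25 was that of NAT16 (r = 0.992), followed by ARHGAP30 (0.982), ENSG00000247934, which overlaps CCDC91 (0.979), and ENSG00000231868 (0.971). Among those nearest to ENSG00000285520 were PLXNA4 (0.988), CHPF2, which overlaps SMARCD3 (0.972), and ENSG00000265750, which overlaps CABYR (0.97). Nearest to ENSG00000244676 were IPO9-AS1 (0.979), UFC1, ENSG00000286800 and THBS3 (0.969 each).

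As a background for the lists of related genes, 5.13% of all tested rows were higher and 6.01% lower than SGCTRL in SG12 in LPDS, and 12.1% were higher and 13.1% lower in SG12 in FBS. In SG21 5.49% were higher and 5.44% lower in LPDS, and 7.35% were higher and 6.69% lower in FBS. These shares change with a term for the ambiguous share class. Rows called either way in SG12 were then 1.56% in LPDS and 6.57% in FBS, against 11.1% and 25.2% without it. In SG21 they were 9.52% in LPDS and 1.22% in FBS, against 10.9% and 14.0%. That term is set by SG21 in LPDS alone, and the list genes were not read with it. Most tested genes of the lists below were counted under their own names, where the share of their own RNA was not measured. The list counts and medians therefore describe rows and may say little of those genes.

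ESPN was set beside other genes of actin bundles and microvilli. Of 29 listed genes besides ESPN, 19 were tested, 5 of them through opposite strand rows and the rest under their own names. In SG12 against SGCTRL 0 were higher and 1 lower in LPDS, and 3 were higher and 3 lower in FBS. In SG21 none passed in either medium. The median log2 difference from SGCTRL over the list was -0.03 and 0.21 in SG12 in LPDS and FBS, against -0.01 and -0.03 over all rows, and 0.03 and -0.02 in SG21, against 0.01 and -0.01 over all rows. The lower genes included BAIAP2L1, which links membrane curvature to actin, read through BRI3 at -2.43 ± 0.13 in LPDS (adjusted p = 4.08e-20 in edgeR's test) and -3.18 ± 0.14 in FBS (adjusted p = 2.93e-24) in SG12. GPSM2, a spindle and stereocilium scaffold, read through CLCC1, was at -0.79 ± 0.09 in SG12 in FBS (adjusted p = 9.76e-10). Among those higher in SG12 in FBS was CDH23, the stereocilium tip link cadherin, read through C10orf105 at 1.10 ± 0.40 (adjusted p = 0.0392).

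Of 29 listed genes of tumour necrosis factor and NF-kB signalling, the pathway of TNFRSF25, 15 were tested. Of these, 5 were read through opposite strand rows and the rest under their own names. In LPDS 1 was higher and 2 lower in SG12, and 1 was lower in SG21. In FBS none was higher and 2 were lower in each knockout line. The higher one was the row ESPN, assigned to TNFRSF25 with the share of its own gene's reads unmeasured, at 1.32 ± 0.26 (adjusted p = 0.000318 in edgeR's test). FADD, the adaptor that death receptors recruit, read through ENSG00000254721, was at -0.49 ± 0.10 in SG12 in both LPDS (adjusted p = 0.000729) and FBS (adjusted p = 0.000248). The list medians were 0.04 and 0.47 in SG12 in LPDS and FBS and 0.01 and -0.04 in SG21. TNFAIP2, counted under its own name, was lower in all 4 comparisons, by between -3.76 and -7.15.

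Of 22 listed genes of Wnt and beta-catenin signalling, the pathway to which C21orf91 has been linked in mouse, 16 were tested. Of these, 5 were read through opposite strand rows and the rest under their own names. In SG12 1 was higher and none lower in LPDS, and 3 were higher and 1 lower in FBS. In SG21 none was higher, and 1 in LPDS and 2 in FBS were lower. NKD1, a Wnt target and feedback inhibitor, read through ENSG00000205414, was at 1.02 ± 0.16 in LPDS and 2.18 ± 0.17 in FBS in SG12 (adjusted p of 7.28e-05 and 6.21e-11 in edgeR's test). In SG21 the same reading was at -0.87 ± 0.17 in LPDS and -0.72 ± 0.17 in FBS (adjusted p of 0.000675 and 0.0035). The transcription factor LEF1, read through LEF1-AS1, was at 0.93 ± 0.12 in SG12 in FBS (adjusted p = 3.01e-08), and TCF7, read through SKP1, at -0.84 ± 0.22 (adjusted p = 0.00255). The list medians were 0.12 and 0.27 in SG12 in LPDS and FBS and -0.32 and -0.08 in SG21.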

How the data were processed

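RNA was sequenced in 24 libraries, 3 for each of 4 lines in 2 media. Per the labels' protocols, 100 ng of total RNA from a Qiagen RNeasy kit went into a strand-keeping Illumina total RNA kit that removes ribosomal RNA with Ribo-Zero Plus. Per the submitters' processing notes, bcl2fastq and STAR were used with hg38. Versions, the counting program, its strand setting and its annotation are not given in the sources used here. The authors deposited raw read counts per gene name, with 5 closing entries that were left out of library sizes. Between 94.3% and 94.6% of uniquely aligned reads fell on no gene.

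The members, lists and tests were chosen with earlier results of these data known. Rows were matched to GENCODE release 29 (56752 of 61578), and a row's source gene is the one whose exons overlap it on the other strand by at least 50 bases and at least 80% of all such overlap (10143 rows). Counts were fitted in R 4.3.3 with edgeR 4.0.16 (quasi-likelihood F test, robust prior, TMM, filterByExpr, all 24 libraries, 1 mean per group). Benjamini-Hochberg adjustment was made over 12822 rows per comparison, and an adjusted p under 0.05 was a pass. Standard errors are the absolute log2 fold change over the square root of F. The medians of all rows lay between -0.093 and 0.0392. Likeness used log2 CPM with a prior count of 2 and rows of average log2 CPM of at least 2. The named genes are the members, the rows of their loci, the nearest rows called in both lines, the 4 most alike rows of each member, and passing members of 3 lists by role, up to 4 of each. Some rows that this rule or the marker lists name are not reported here. The pipeline was tested on simulated data. Alternatives were DESeq2 1.42.0 size factors and Wald test, other count filters, all uniquely aligned reads as library size, a term for the ambiguous share class, the compared groups alone, a replicate block, each library left out and, chosen after seeing the data, a prior estimated without robustness.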

Additional observations from a re-analysis of the deposited data

Results flagged for a closer look

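The response of TNFRSF25 (ESPN) to LPDS differed between lines by a test of the difference itself. It was -0.805 on the log2 scale for SG12 relative to SGCTRL, with a fall of 1.11 in SG12 and a value of -0.30 in SGCTRL. It was -1.077 for SG12 relative to SG21, where SG21 was at -0.03. The response of ENSG00000285520 (CCDC3) in SG12 relative to SG21 was -0.511, with -0.41 in SG12 and 0.10 in SG21. Replicates 2 and 3 of SG21 in LPDS, at 283 and 276 CPM, had the low ambiguous share and replicate 1, at 201 CPM, the high one. The part of that split in the result was not tested beyond the fit with a term for it, which gave -0.22 (adjusted p = 0.592 in edgeR's test).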

How the results depend on the processing

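Values below are log2 differences, with adjusted p from edgeR's quasi-likelihood test unless DESeq2's Wald test is named. The rows are TNFRSF25 for ESPN, ENSG00000285520 for CCDC3 and ENSG00000244676 for C21orf91. Of the alternative values, 416 of the tested ones kept their direction and side of the threshold, 17 lost the pass, 7 gained it and 19 changed sign, while 429 of the described differences stayed within the replicate spread and 21 moved beyond it. The fall of TNFRSF25 in LPDS in SG12, its excess in SG12 over SG21 in FBS and its difference in response between SG12 and SG21 passed under every alternative run. No described difference between a knockout line and SGCTRL or parental cells changed sign. The replicate numbers did not pair the samples: 9 of 84 same-numbered pairs of libraries correlated above 0.1, and 0 of 28 group pairs did so throughout (range -0.128 to 0.207). With the replicate block, no member's call changed, and TNFRSF25 was at -1.11 for LPDS over FBS in SG12.

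SG12 minus SG21 in FBS changed sign for ENSG00000285520, near 0, with DESeq2 size factors (0.03377), the Wald test (0.03388), no count filter (0.0008376) and the compared groups alone (0.02072). ENSG00000244676 passed there with DESeq2 size factors (0.3806), the Wald test (0.3814) and the compared groups alone (0.3678). In the response difference of SG12 from SGCTRL, TNFRSF25 missed the threshold with no count filter (-0.8105). In that of SG12 from SG21, ENSG00000285520 missed it with no count filter (-0.468), with at least 1 CPM in 3 libraries (-0.4917), with the term for the ambiguous share class (-0.2155) and with the prior estimated without robustness (-0.5113). LPDS in SG21 changed sign for TNFRSF25 with all uniquely aligned reads as library size (0.01193) and for ENSG00000285520 with the class term (-0.1929), which also ended the pass of ENSG00000285520 for SG12 minus SG21 in LPDS (-0.2222). The cause was not tested.

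SG21 in LPDS is the only group with libraries of both classes, replicate 1 in the high class and replicates 2 and 3 in the low. The class term is set by these libraries alone, so every difference across classes below rests on them. With the class term, the differences from SGCTRL in FBS were 2.561 (TNFRSF25), 1.833 (ENSG00000285520) and 0.8714 (ENSG00000244676) in SG12, and 1.839 (ENSG00000285520) and 0.5306 (ENSG00000244676) in SG21. In LPDS they were 1.629 and 0.5765 in SG12 for ENSG00000285520 and ENSG00000244676. For the same rows, SG21 minus parental in LPDS was 1.29 and 1.144, and SGCTRL minus parental was -0.3862 and 0.1206 in FBS and -0.561 and 0.2824 in LPDS.

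With 1 library left out, LPDS over FBS ranged between -0.0146 and 0.533 (TNFRSF25), -0.07222 and 0.01936 (ENSG00000285520) and -0.2446 and 0.03457 (ENSG00000244676) in parental cells. It ranged between -0.07444 and 0.1054 for ENSG00000244676 in SGCTRL, -0.4413 and -0.244 for ENSG00000244676 in SG12, where it passed without replicate 3 in FBS, and -0.0996 and 0.05702 for TNFRSF25 in SG21. SG12 minus SG21 ranged in FBS between -0.002571 and 0.2291 for ENSG00000285520 and 0.3108 and 0.5413 for ENSG00000244676, and in LPDS between -0.6457 and -0.4029 for ENSG00000285520 and -0.1229 and 0.04827 for ENSG00000244676. The response difference ranged between -0.9853 and -0.6776 for TNFRSF25 (SG12 from SGCTRL), and between -0.7379 and -0.4856 for ENSG00000285520 and -0.5982 and -0.3631 for ENSG00000244676 (SG12 from SG21). In FBS, SG12 minus SGCTRL ranged between 2.404 and 2.569 (TNFRSF25), 1.412 and 1.636 (ENSG00000285520) and 1.181 and 1.395 (ENSG00000244676). SG12 minus parental ranged between 2.762 and 3.333 (TNFRSF25) and 1.411 and 1.636 (ENSG00000285520), SG21 minus parental between 1.372 and 1.474 (ENSG00000285520), and SGCTRL minus parental between -0.05084 and 0.05724 (ENSG00000285520).

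The reads behind the rows limit precision, with 41 to 440 reads of TNFRSF25 and 202 to 1005 of ENSG00000285520 per library.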
